A study of Homo sapiens with 6 samples.

Results

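The DOCK2 to GABRP stretch is the part of chromosome 5 that lies 564 to 2000 kb below the FGF18 viewpoint, on its centromeric side. Its members are the HindIII restriction fragments whose midpoint falls in chr5:168852458-170288873 (hg19). Of the 20398 chr5 fragments with a read in at least 1 library, 326 were members. The libraries are 4C-seq (circular chromosome conformation capture) libraries of the human leukaemia line K562, with 2 libraries in each of 3 groups. DKO cells had silencer 1 and silencer 2 excised by CRISPR, S1KO cells had silencer 1 excised, and EV cells carried an empty vector. The viewpoint fragment, chr5:170851908-170853009 (hg19), lies at FGF18, which encodes a secreted fibroblast growth factor. The labels do not say whether a group is a clone or a pool, where the silencers lie, or whether replicates came from separate cultures, so the excisions were not checked and the spread between replicates may be technical.

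The assay fixes chromatin, cuts it, joins ends that lie close together, and then amplifies and counts the fragments joined to the viewpoint. A read on a member thus records that this piece of chromatin was ligated to the FGF18 fragment in some cells, and contact frequency generally declines with distance along the chromosome. 4C-seq measures contacts and not the expression of the genes named here. In the gene order of the GRCh38.p14 annotation, 8 protein-coding genes run from DOCK2 to GABRP, and RANBP17, TLX3 and NPM1 lie between GABRP and FGF18. Starting from the centromeric end, DOCK2 activates the small GTPase Rac in migrating leukocytes, and INSYN2B and the forkhead transcription factor gene FOXI1 come next. C5orf58 and LCP2 follow, the second encoding an adaptor of T-cell receptor signalling. KCNIP1 encodes a protein that binds voltage-gated potassium channels, and KCNMB1 encodes a regulatory subunit of calcium-activated potassium channels of smooth muscle. GABRP encodes the pi subunit of the GABA-A receptor. In the same order SLIT3 and SPDL1 come before DOCK2, and whether the stretch reaches them was not checked. No gene positions on hg19 were used, so values are given by position and distance, and no window is assigned to a gene body.

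The enzymes set what the assay can resolve, so the promoter windows of the viewpoint gene and of the 2 genes that name the stretch are shown (RefSeq, GRCh38.p14, all on the plus strand, from 250 bases before to 50 after the gene's start). Capitals mark the DpnII site GATC. These coordinates cannot be set beside the hg19 positions of the fragments. The lines are FGF18 at chr5:171419397-171419696, DOCK2 at chr5:169637025-169637324 and GABRP at chr5:170783475-170783774.
FGF18: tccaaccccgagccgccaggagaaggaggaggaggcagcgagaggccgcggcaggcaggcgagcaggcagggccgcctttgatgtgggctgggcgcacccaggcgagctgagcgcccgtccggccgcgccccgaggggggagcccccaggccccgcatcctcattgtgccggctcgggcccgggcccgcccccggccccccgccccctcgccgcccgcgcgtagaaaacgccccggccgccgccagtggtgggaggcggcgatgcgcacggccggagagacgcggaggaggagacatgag
DOCK2: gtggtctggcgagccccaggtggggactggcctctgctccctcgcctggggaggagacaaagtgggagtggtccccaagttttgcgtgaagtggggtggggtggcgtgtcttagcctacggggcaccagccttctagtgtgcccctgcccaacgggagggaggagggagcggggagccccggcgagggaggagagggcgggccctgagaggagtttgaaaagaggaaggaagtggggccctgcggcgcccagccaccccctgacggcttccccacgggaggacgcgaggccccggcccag
GABRP: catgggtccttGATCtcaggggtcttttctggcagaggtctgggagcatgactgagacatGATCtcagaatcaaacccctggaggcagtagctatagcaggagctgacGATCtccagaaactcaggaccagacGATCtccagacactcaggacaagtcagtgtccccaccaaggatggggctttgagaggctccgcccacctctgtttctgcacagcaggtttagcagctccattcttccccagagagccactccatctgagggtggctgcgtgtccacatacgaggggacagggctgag
The GABRP window held 4 DpnII sites, and the FGF18 and DOCK2 windows held 0. The HindIII site AAGCTT, searched on both strands like GATC, was in 0 of the 7 windows found for the 5 genes the stretch is described by and FGF18, against 5.84% of all 35116 RefSeq promoter windows. GATC was in 4 of the 7, against 41.7% of all. None of these windows is thus cut by HindIII in this build, and a read on a member does not tell a promoter apart from the rest of its fragment.

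The libraries held 708503 to 1919737 reads in all, and 65464 to 271861 reads within 2 Mb of the viewpoint once the 10 kb on either side of it were left out. Those within 2 Mb numbered 241066 and 271861 in DKO, 131098 and 107152 in S1KO, and 68303 and 65464 in EV. Depth there thus differed by group. EV replicate 2 had the most reads in all and the fewest within 2 Mb. The stretch itself held 29890 and 39093 reads in DKO, 17558 and 12618 in S1KO, and 7483 and 6874 in EV. Reads fell on 232 and 275 of the 326 fragments in DKO, on 228 and 198 in S1KO, and on 227 and 126 in EV. EV replicate 2 thus listed the fewest members, while its read total in the stretch was close to that of EV replicate 1. In EV, 106 fragments were read in both replicates, 46.7% of those of replicate 1 and 84.1% of those of replicate 2. The corresponding shares were 69.3% and 79.8% in S1KO, and 91.4% and 77.1% in DKO. All 6 libraries read 69 of the 326 members, and these carried 50.4% of the stretch's reads in DKO, 53.7% in S1KO and 55.1% in EV. Member fragments were 19 to 19447 bases long with a median of 2419, and longer ones tended to hold more reads (Spearman correlation 0.351 to 0.481 per library over the 326 fragments, a description across fragments of 1 library). Because single fragments were this sparse, reads were summed in 50-kb windows counted from the viewpoint midpoint, and 29 windows have their midpoint in the stretch.

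The stretch took a larger share of the contacts within 2 Mb in both excised groups than in the control. It held 124 and 144 of every 1000 reads within 2 Mb in DKO, 134 and 118 in S1KO, and 110 and 105 in EV. Both DKO libraries and both S1KO libraries lay above both EV libraries, and the DKO and S1KO ranges overlapped. DKO averaged 133.9 ± 14.0 (SD, n = 2), S1KO averaged 125.8 ± 11.4 and EV averaged 107.3 ± 3.22. On the log2 scale the share differed by 0.32 (SE 0.11) for DKO against EV, by 0.23 (SE 0.10) for S1KO against EV and by 0.09 (SE 0.14) for DKO against S1KO. Leaving out 1 library gave 0.21 to 0.42 for DKO against EV, lowest without DKO replicate 2, and 0.13 to 0.32 for S1KO against EV, lowest without S1KO replicate 1. For DKO against S1KO it gave -0.02 to 0.19, and the sign turned without DKO replicate 2 and, at a value near 0, without S1KO replicate 2, so no direction is given for that pair. With 2 libraries against 2 an exact two-sided permutation test cannot go below 0.333, so these are given as values. The 95% Wilson intervals of the shares of single libraries were 2.63 to 4.70 reads per 1000 wide. They cover the counting error of amplified reads only, and not that of the ligations behind them.

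**Figure D1:**
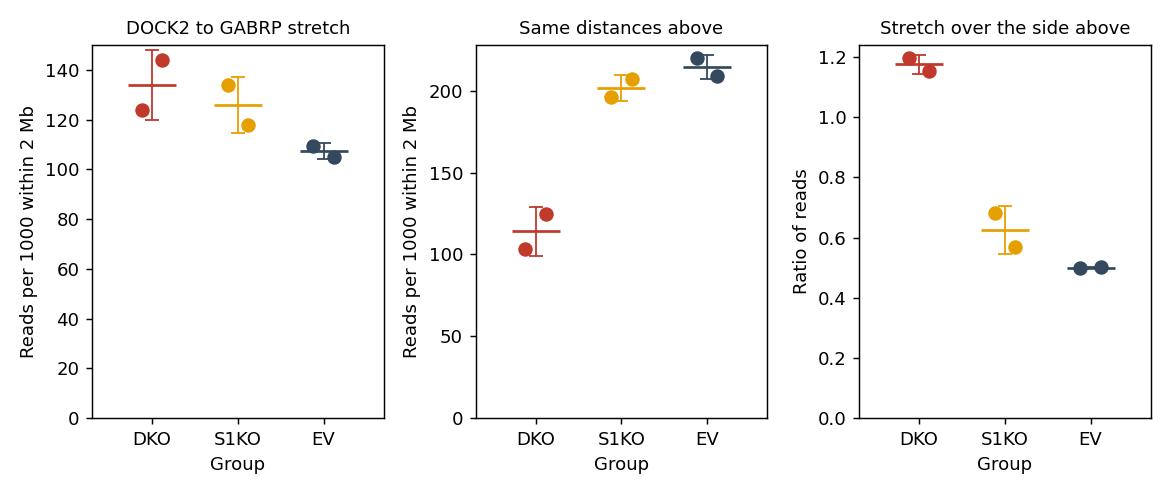
Left and middle, reads per 1000 reads within 2 Mb of the viewpoint in the DOCK2 to GABRP stretch and in the stretch at the same distances above the viewpoint; right, the ratio of the first to the second. Points are libraries, horizontal lines are group means and bars are SD (n = 2). The DKO ratios of 1.20 and 1.15 sit above all other libraries.

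The size of the difference from EV depended on what the reads were set against. As a share of all chr5 reads outside the 10-kb zone, the stretch held 6.92% and 8.34% in DKO, 6.43% and 5.31% in S1KO, and 5.02% and 3.34% in EV. By that measure DKO against EV stood at log2 0.87. As a share of the reads on the centromeric side alone, it held 29.3% and 33.9% in DKO, 37.3% and 31.5% in S1KO, and 30.9% and 27.1% in EV. By that share DKO overlapped both other groups, and both S1KO libraries lay above both EV libraries. The 153 fragments between the stretch and the viewpoint took 299 and 281 reads per 1000 in DKO, 225 and 256 in S1KO, and 246 and 282 in EV. For each read there, the stretch held 0.414 and 0.512 reads in DKO, 0.595 and 0.461 in S1KO, and 0.446 and 0.373 in EV. DKO overlapped both S1KO and EV in this ratio, while both S1KO libraries lay above both EV libraries, the closest pair at 0.461 and 0.446. When fragments with a read were counted in place of reads, the stretch held 33.6% and 33.8% of those within 2 Mb in DKO, 30.9% and 30.6% in S1KO, and 32.0% and 28.3% in EV. On this count of fragments S1KO lay within the EV range.

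Against the telomeric side, the stretch differed more between the groups. The stretch at the same distances above the viewpoint, chr5:171416043-172852458, held 104 and 125 reads per 1000 in DKO, 196 and 207 in S1KO, and 220 and 209 in EV. The ratio of reads in the DOCK2 to GABRP stretch to reads in that stretch was 1.20 and 1.15 in DKO, 0.683 and 0.568 in S1KO, and 0.499 and 0.502 in EV. In DKO the centromeric side thus held more reads than the telomeric side at these distances, and in the other 4 libraries it held fewer. This ratio needs no scaling, and the difference of its log2 value was 1.23 (SE 0.03) for DKO against EV, 0.32 (SE 0.13) for S1KO against EV and 0.92 (SE 0.14) for DKO against S1KO. Leaving out 1 library moved the DKO against EV value between 1.21 and 1.26 and the S1KO against EV value between 0.18, without S1KO replicate 1, and 0.45. For DKO against EV, counting fragments with a read in place of reads gave 0.30. The SE rests on 2 libraries a group and is itself poorly known. Shares within 2 Mb add up to 1000 in each library, so a lower telomeric share goes with higher shares elsewhere by construction.

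Contacts along the stretch did not decline smoothly with distance. The 16 windows from 2000 to 1200 kb below the viewpoint had medians of 2.27 and 2.42 reads per 1000 in the DKO libraries, 2.40 and 2.24 in S1KO, and 2.52 and 1.95 in EV. The 13 windows from there to the inner end had medians of 6.82 and 6.89 in DKO, 7.57 and 5.64 in S1KO, and 5.72 and 4.95 in EV. The inner windows were thus 2.27 to 3.15 times the outer ones in all 6 libraries. Most of the step lay between neighbouring windows. Window chr5:169602458-169652457 held 4.30 and 3.72 reads per 1000 in DKO, 3.74 and 3.20 in S1KO, and 3.84 and 2.00 in EV. The next one toward FGF18, chr5:169652458-169702457, held 11.9 and 14.7 in DKO, 8.96 and 9.73 in S1KO, and 7.29 and 4.95 in EV. An interval in which no library listed a fragment, chr5:169635667-169653875, lies across the border between these windows. The border at 1200 kb was chosen after seeing the values. Above the viewpoint the same split gave larger ratios of inner to outer medians, 4.38 and 4.48 in DKO, 4.00 and 4.05 in S1KO, and 3.72 and 3.34 in EV.

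**Figure D2:**
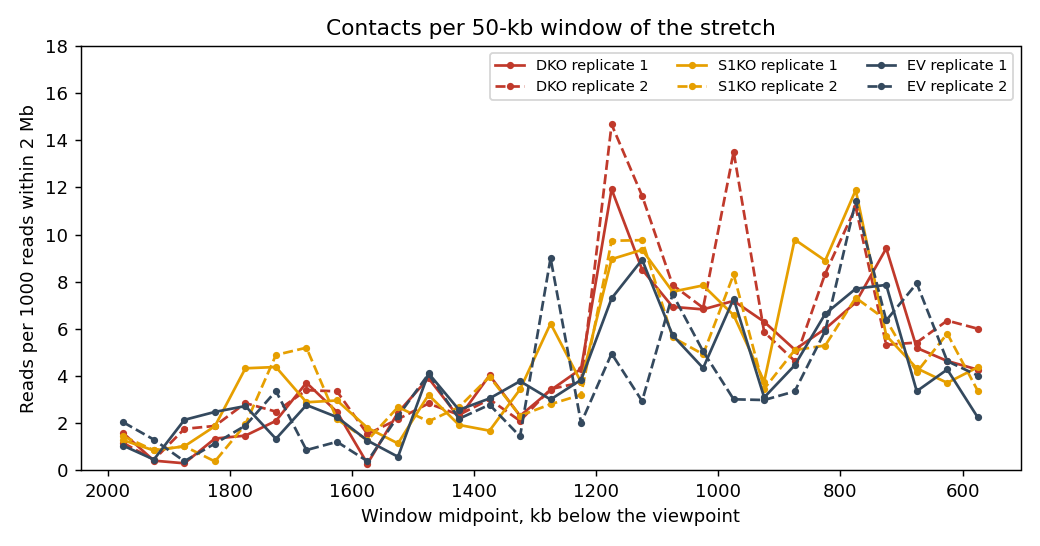
Reads per 1000 reads within 2 Mb (vertical axis) in each 50-kb window of the stretch against the distance of the window's midpoint below the viewpoint in kb, 1 line per library. Windows beyond 1200 kb have medians of 1.95 to 2.52 and those nearer have medians of 4.95 to 7.57.

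In reads per 1000, the gap between the excised groups and EV was widest from 1200 to 800 kb below the viewpoint, among the stretch's 200-kb windows. The means were close from 800 to 600 kb. By log2 ratio, S1KO against EV was widest farther out, at 0.81 in chr5:169052458-169252457. The outer part summed to 36.2 and 38.5 reads per 1000 in DKO, 42.7 and 38.9 in S1KO, and 37.3 and 36.3 in EV. The 13 inner windows summed to 89.4 and 107.7 in DKO, 92.7 and 79.2 in S1KO, and 73.2 and 70.0 in EV. The last of these 13, chr5:170252458-170302457, runs past the end of the stretch and holds 16 fragments, of which 10 are members. In the 200-kb window from 1200 to 1000 kb below the viewpoint, chr5:169652458-169852457, the level was 37.6 ± 4.86 in DKO, 31.9 ± 2.60 in S1KO and 23.3 ± 4.16 in EV (n = 2 libraries per group, SD). Here the groups did not overlap in any of the 3 comparisons. The log2 ratios were 0.69 for DKO against EV, 0.45 for S1KO against EV and 0.24 for DKO against S1KO. This order was not particular to the window. Nearer the viewpoint, chr5:170252458-170452457 and chr5:170452458-170652457 showed it without overlap too, at log2 1.08 and 0.80 for DKO against EV. The next window toward FGF18, chr5:169852458-170052457, stood at 28.5 ± 5.48 in DKO, 25.6 ± 4.86 in S1KO and 18.3 ± 4.39 in EV, with log2 0.63 for DKO against EV. The one after it, chr5:170052458-170252457, held 27.3 ± 1.34 in DKO, 24.6 ± 1.40 in S1KO and 26.8 ± 5.04 in EV, and both other groups lay within the EV libraries, 23.2 and 30.3. The last 36.4 kb of the stretch, up to chr5:170288873, held 2.60 and 3.69 in DKO, 2.89 and 3.06 in S1KO, and 1.29 and 2.73 in EV.

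Among the 200-kb windows of the outer part, chr5:169052458-169252457 differed from the rest in its order. It held 9.75 and 12.1 reads per 1000 in DKO, 14.5 and 14.2 in S1KO, and 9.08 and 7.32 in EV. S1KO was highest there, above both other groups without overlap, at log2 0.81 against EV, and DKO stood at log2 0.41 against EV and -0.40 against S1KO. The window from 1600 to 1400 kb below, chr5:169252458-169452457, was nearly level, at 8.87 ± 0.0130 in DKO, 8.38 ± 0.455 in S1KO and 8.72 ± 0.304 in EV. The window chr5:169452458-169652457 held 13.1 ± 1.24 in DKO, 13.7 ± 1.97 in S1KO and 14.4 ± 1.10 in EV. At the far end, chr5:168852458-169052457 held 4.42 ± 1.15 in DKO, 4.34 ± 0.933 in S1KO and 5.47 ± 0.893 in EV. In these 3 windows no excised group was separate from EV. The 200-kb windows were compared as values with no test.

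**Figure D3:**
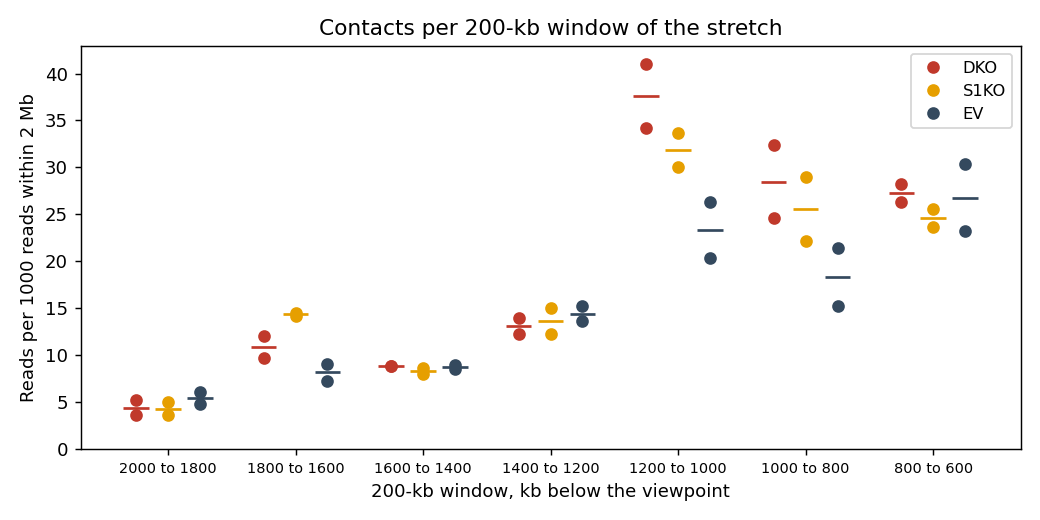
Reads per 1000 reads within 2 Mb in the 7 whole 200-kb windows of the stretch, ordered by distance below the viewpoint in kb. Points are libraries and short lines are group means (n = 2). The windows at 1200 to 1000 kb and 1000 to 800 kb hold DKO means of 37.6 and 28.5 and EV means of 23.3 and 18.3.

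Removal of both silencers was tested against EV window by window, in 1 edgeR fit over all 80 windows of 50 kb within 2 Mb. One window of the stretch rose, chr5:169652458-169702457, which starts 1200 kb below the viewpoint. It held 11.9 and 14.7 reads per 1000 in DKO, against 7.29 and 4.95 in EV (log2 1.12 ± 0.36 SE, adjusted p = 0.018 by edgeR). That makes 1 of 29 windows, all of them tested, against 7.5% of all 80 windows called higher in DKO and 17.5% called in either direction. No window of the stretch was called lower, and 2 of the 29 had an unadjusted p under 0.05, against 36.2% of the 80. Over the stretch the median log2 fold change was 0.17, against -0.21 over all 80 windows. The fold change was above 0 in 17 of 29 windows, against 38.8% of the 80. Both DKO libraries lay above both EV libraries in 8 of the 29 windows, against 25% of the 80, and below both in 2 of the 29, against 38.8% of the 80. The call was lost without DKO replicate 1 (adjusted p = 0.085), without DKO replicate 2 (0.22) and without EV replicate 2 (0.11), all by edgeR, while without EV replicate 1 there were 3 calls in the stretch. Where 1 library of a group is left out, the remaining library is assumed to vary like those of the other groups. DESeq2 called 3 of the 29, against 22.5% of the 80.

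The called window is made of 12 member fragments. Its fragment with most reads over the 6 libraries, chr5:169689076-169706664, held 2.94 and 2.45 reads per 1000 in DKO, 3.01 and 3.98 in S1KO, and 1.41 and 3.04 in EV, so DKO and EV overlapped there. Fragment chr5:169665691-169669151 held 498 and 761 reads in DKO, 6 and 31 in S1KO, and 41 and 0 in EV. It supplied 17.3% and 19.1% of the window's reads in the DKO libraries. Leaving out any 1 of the 12 fragments gave log2 ratios of DKO to EV between 0.90 and 1.44. The window was called for its high ratio, and no fragment held more than 24.7% of its reads in a DKO library. A ratio near 0 was thus unlikely in advance, and fragments of 1 window are not replicates. Counting fragments with a read in place of reads, the window stood at log2 0.11. EV replicate 2 had reads on 6 of the 12 fragments, and the other libraries on 11 or 12.

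The other windows named for DKO against EV had values that did not pass. Window chr5:169852458-169902457 held 7.18 and 13.5 reads per 1000 in DKO, against 7.28 and 3.01 in EV (log2 1.01 ± 0.42 SE, adjusted p = 0.079 by edgeR). DKO replicate 1 lay within the EV range there, and the value was log2 0.48 without DKO replicate 2, 0.51 without EV replicate 2 and 1.78 without EV replicate 1 (adjusted p = 0.018 by edgeR). Window chr5:169902458-169952457, next to it, held 6.30 and 5.86 in DKO, against 3.09 and 2.98 in EV (log2 1.00 ± 0.54 SE, adjusted p = 0.15 by edgeR), with replicates close together in both groups. Window chr5:169702458-169752457 stood at 8.51 and 11.6 in DKO, against 8.93 and 2.93 in EV. Its log2 fold change was 0.76, against 0.17 without EV replicate 2 and 1.78 without EV replicate 1 (adjusted p = 0.0080 by edgeR). Farther out, chr5:169152458-169202457 held 3.71 and 3.40 in DKO, against 2.77 and 0.855 in EV (log2 0.97 ± 0.64 SE, adjusted p = 0.25 by edgeR). That value was log2 0.36 without EV replicate 2 and 2.05 without EV replicate 1.

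**Figure D4:**
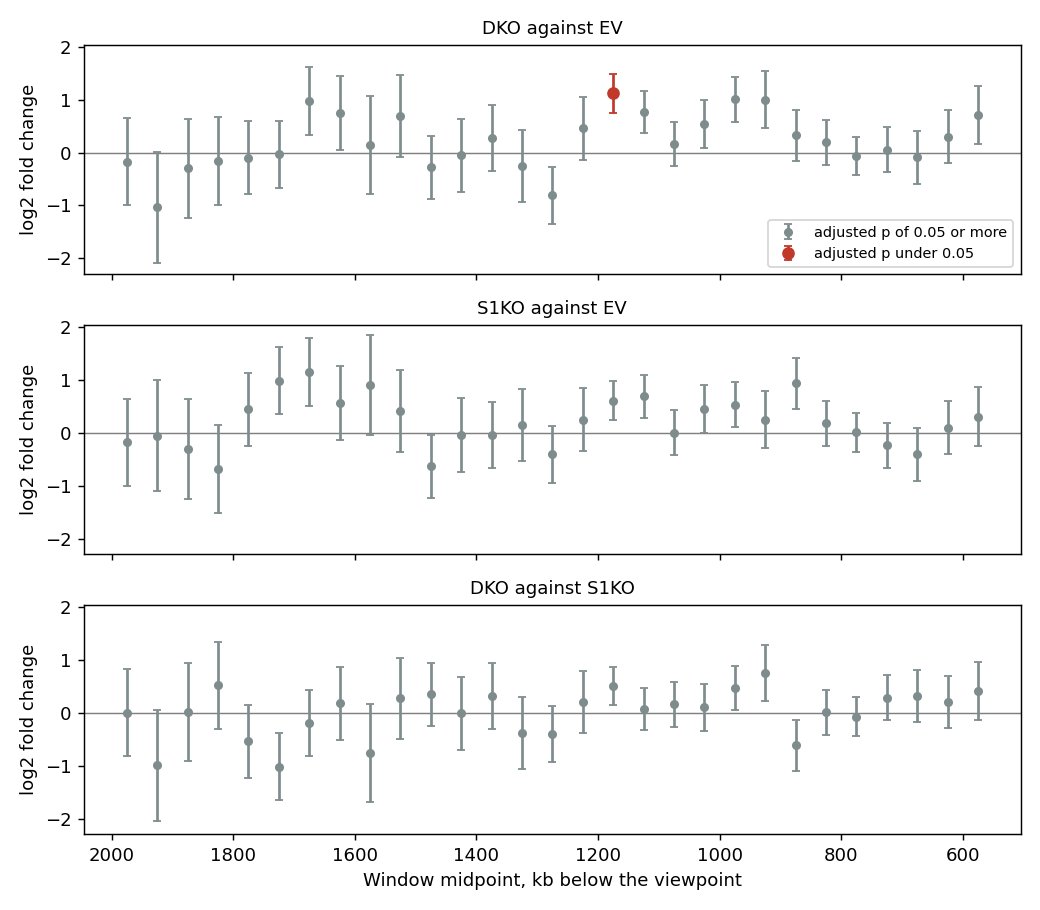
Log2 fold change (vertical axis) of each 50-kb window of the stretch with its SE from the edgeR fit, against the distance of the window's midpoint below the viewpoint in kb, for DKO against EV, S1KO against EV and DKO against S1KO. The coloured point is the window at log2 1.12 that passed.

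Removal of silencer 1 alone, against EV, gave 0 calls in the stretch by edgeR, with 0 windows at an unadjusted p under 0.05 and 0 called by DESeq2. Over the 80 windows 0% were called and 3.75% had an unadjusted p under 0.05. Over the 29 windows the median log2 fold change was 0.18, against 0.01 over all 80, and it was above 0 in 19 of the 29, against 52.5% of the 80. In 7 of the 29 both S1KO libraries lay above both EV libraries, against 21.2% of the 80, and in 1 of the 29 they lay below both, against 16.2%. The window with the lowest p, chr5:169952458-170002457, held 9.79 and 5.10 reads per 1000 in S1KO, against 4.45 and 3.35 in EV (log2 0.93 ± 0.49 SE, adjusted p = 0.58 by edgeR). That value was 0.39 without S1KO replicate 1 and 1.33 without S1KO replicate 2. The window that rose in DKO, chr5:169652458-169702457, held 8.96 and 9.73 in S1KO, between the DKO and EV libraries without overlap with either (log2 0.61 ± 0.36 SE against EV, adjusted p = 0.58 by edgeR). Its neighbour chr5:169702458-169752457 held 9.35 and 9.76 in S1KO, against 8.93 and 2.93 in EV. Without EV replicate 1 this neighbour passed, as the 1 call then made in the stretch (log2 1.70, edgeR adjusted p = 0.039), and without EV replicate 2 it stood at log2 0.10. The first value sets S1KO against a single EV library, the lower one, with the spread taken from the other groups. In the outer part, chr5:169102458-169152457 held 4.38 and 4.89 in S1KO, against 1.33 and 3.36 in EV, and chr5:169152458-169202457 held 2.88 and 5.20, against 2.77 and 0.855 in EV. Leaving out 1 library moved the first between log2 0.46, without EV replicate 1, and 1.80, without EV replicate 2. It moved the second between 0.55, without EV replicate 2, and 2.24, without EV replicate 1.

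The comparison of DKO with S1KO, which differ by the excision of silencer 2, gave 0 calls in the stretch by edgeR, with 0 windows at an unadjusted p under 0.05 and 0 called by DESeq2, against 15% of the 80 windows called by edgeR (3.75% higher in DKO) and 13.8% called by DESeq2. Of the 80, 26.2% had an unadjusted p under 0.05. The median over the 29 windows was log2 0.10, against -0.20 over all 80, and 19 of the 29 were above 0, against 43.8% of the 80. Both DKO libraries lay above both S1KO libraries in 3 of 29 windows, against 16.2% of the 80, and below them in 3 of 29, against 33.8%. The lowest p belonged to chr5:169102458-169152457, at 2.09 and 2.49 reads per 1000 in DKO, against 4.38 and 4.89 in S1KO (log2 -1.02 ± 0.63 SE, adjusted p = 0.33 by edgeR). Next came chr5:169652458-169702457 (log2 0.51 ± 0.36 SE, adjusted p = 0.38 by edgeR) and chr5:169902458-169952457 (log2 0.75 ± 0.53 SE, adjusted p = 0.38 by edgeR). In chr5:169952458-170002457 DKO held 5.12 and 4.64, against 9.79 and 5.10 in S1KO (log2 -0.61, and -0.063 without S1KO replicate 1). In chr5:169852458-169902457 it held 7.18 and 13.5, against 6.58 and 8.31 in S1KO (log2 0.48, and -0.050 without DKO replicate 2). The 3 comparisons share libraries in pairs and are not independent of each other.

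The 10 fragments with the highest mean reads per 1000 over the libraries were read in all 6 libraries. None was higher in both DKO libraries than in the other 4. How many of all members show such an order was not counted. This and the orders given below thus describe single fragments only. The first, chr5:170073666-170082926 at 774 kb below the viewpoint, held 3.42 and 2.69 reads per 1000 in DKO, 2.49 and 2.45 in S1KO, and 3.16 and 3.93 in EV. The next, chr5:169689076-169706664, lies in the called window. The one after it, chr5:169806303-169818768, held 1.54 and 3.38 in DKO, 3.85 and 2.00 in S1KO, and 1.33 and 3.06 in EV, so all 3 groups overlapped. Others differed in order. Fragment chr5:170024883-170030347 held 1.97 and 0.820 in DKO, 1.91 and 0.933 in S1KO, and 2.46 and 2.64 in EV, with both EV libraries above the other 4. Fragment chr5:170034341-170046336 held 1.40 and 1.67 in DKO, 2.37 and 2.39 in S1KO, and 1.74 and 1.10 in EV, with both S1KO libraries above the other 4. Fragment chr5:169860513-169867866 held 1.34 and 2.68 in DKO, 1.21 and 3.02 in S1KO, and 0.161 and 1.57 in EV, with overlap. The 10 strongest fragments of each library held 19.0% ± 0.170 of its reads in the stretch in DKO, 20.4% ± 1.00 in S1KO and 24.4% ± 7.78 in EV (n = 2 libraries per group, SD).

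The fit over single fragments of chr5 tested 264 of the 326 members, those with at least 10 reads in at least 2 libraries. None was called by edgeR in any comparison, against 0% of the 5017 fragments tested. At an unadjusted p under 0.05 there were 13 members for DKO against EV (against 1.65% of the 5017), 11 for S1KO against EV (0.937%) and 3 for DKO against S1KO (0.917%). These counts are over the 264 members that passed the filter, not all members. DESeq2 called 2 (against 0.797% of chr5 fragments), 3 (0.14%) and 0 (0%). The lowest p for both comparisons with EV was that of chr5:169204985-169210843, with 148 and 240 reads in DKO, 228 and 69 in S1KO, and 0 and 0 in EV. With EV set to a floor of 3 reads per library, DKO stood 16.7-fold and S1KO 26.6-fold higher. Neither passed (edgeR adjusted p = 0.47 and 0.44). Replicates of 1 group also differed in this way: chr5:170095158-170098874 held 220 and 0 reads in S1KO, and chr5:169738273-169743488 held 171 and 0 in EV. Folds on this floor are therefore not lower bounds on a group difference. Fragment chr5:169770729-169780905 held 502 and 509 reads in DKO, 279 and 210 in S1KO, and 37 and 7 in EV, with the 4 excised libraries at 1.87 to 2.13 reads per 1000 and the EV libraries at 0.542 and 0.107. Its log2 fold change was 3.36 for DKO against EV (SE 1.26, edgeR adjusted p = 0.47), and it was 2.35 without EV replicate 2 and 5.45 without EV replicate 1. Unlike the shares, these fold changes are scaled to all chr5 reads outside the 10-kb zone with TMM. On that scale the median over all tested fragments was log2 0.60 for DKO against EV. The median was 1.22 without EV replicate 2 and 6.23 without EV replicate 1. Fragment chr5:169882578-169884039 held 58 and 284 reads in DKO, 81 and 5 in S1KO, and 0 and 0 in EV. On the same floor it was 14.3-fold higher in DKO than in EV.

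Near the inner end, a pair of short fragments was read in DKO and EV but in neither S1KO library. Fragment chr5:170205155-170206348 held 150 and 183 reads in DKO, 0 and 0 in S1KO, and 32 and 107 in EV. With S1KO set to the same floor of 3 reads, this fragment was 41.3-fold lower in S1KO than in EV (edgeR adjusted p = 0.44). Fragment chr5:170215851-170216182 held 62 and 156 in DKO, 0 and 0 in S1KO, and 34 and 88 in EV, 36.2-fold lower in S1KO on that floor. As above, these folds are not lower bounds on a group difference. DESeq2 called both lower in S1KO (adjusted p = 0.033 and 0.048), and edgeR called neither. How such gaps compare depends on the background: for S1KO and EV the share in the stretch was below that of chr5 and above that within 2 Mb, and neither difference was tested. Of the 89 members read in all DKO and EV libraries, 3 were at 0 in both S1KO libraries (3.37%, against 6.36% of such chr5 fragments and 1.4% of those within 2 Mb). Of the 136 read in all DKO and S1KO libraries, 11 were at 0 in both EV libraries (8.09%, against 13.8% on chr5 and 5.89% within 2 Mb). Of the 70 read in all S1KO and EV libraries, 0 were at 0 in both DKO libraries (against 3.44% on chr5 and 0.294% within 2 Mb).

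In the authors' deposited table of each library, no fragment of the stretch was called as an interaction, with 0 members at a q-value under 0.05 in each of the 6 libraries. The lowest deposited q-value in the stretch was 1 in every library. A deposited p-value under 0.05 was listed for 0 and 2 members in DKO, 2 and 1 in S1KO, and 0 and 0 in EV. The share over all fragments was not counted and EV had the fewest reads within 2 Mb. These counts therefore do not show a difference between the groups. In the authors' deposited tables, the lowest p-value of DKO replicate 2, 0.0303, and that of S1KO replicate 1, 0.00537, belonged to chr5:169806303-169818768. The lowest of S1KO replicate 2 in its deposited table, 0.0106, belonged to chr5:169689076-169706664. Both are among the 3 members with most reads. Within 2 Mb the authors' deposited tables called 8 and 19 fragments in DKO, 17 and 15 in S1KO, and 11 and 5 in EV. Below the viewpoint these reached no farther than 62.1 kb. Above it they reached 133 and 167 kb in DKO, 588 and 265 kb in S1KO, and 393 and 12.1 kb in EV. In S1KO replicate 1, 1 of them lay in the telomeric stretch at the same distances.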

How the data were processed

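Contacts of the FGF18 viewpoint were measured by 4C-seq in 6 K562 libraries, cut with HindIII and DpnII per the labels' protocols. The submitters' processing notes name Bowtie2 2.2.5 and hg19; for the interaction caller, its name and filters were not given in the sources used here. The deposited counts are unnormalized reads on each fragment, per the file headers, and fragments not listed were taken as 0. The p-value and q-value columns are those the authors deposited per library. A column headed RPMs, per the file headers, is a score here because each library's sum exceeds that unit's limit, and it was not used.

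Shares are reads per 1000 chr5 reads within 2 Mb of the viewpoint midpoint, without the 10 kb on either side. Sums over 50-kb windows (at least 10 reads in at least 2 libraries) and single chr5 fragments (with TMM) were tested with edgeR 4.0.16 (quasi-likelihood, R 4.3.3, all 6 libraries, Benjamini-Hochberg, threshold 0.05), after tests on simulated data; DESeq2 1.42.0 was an alternative. Python 3.11.15, numpy 2.4.6, pandas 2.3.3, scipy 1.17.1 and matplotlib 3.10.9 did the rest. Other alternatives were scalings, filters, window sizes, reads per fragment capped at the library's 90th percentile, numbers of fragments, the replicate block and leaving out libraries. Named were called windows and the lowest p up to 5 per comparison, and the 3 fragments with the lowest p. The 10 fragments with the highest mean reads per 1000 over the libraries were also named. Fragments beyond these were chosen after their values were seen. The members and lists were chosen with earlier results of these data known. Replicate numbers were not used to pair the libraries in the main fits. Over 80 windows the differences between replicates correlated at 0.0611 between S1KO and EV, -0.262 between DKO and EV and -0.217 between DKO and S1KO. The labels do not say whether equal numbers share a preparation, and these correlations cannot exclude it.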

Additional observations from a re-analysis of the deposited data

How the results depend on the processing

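Every log2 difference of the stretch's share for DKO against EV and S1KO against EV was above 0 under the alternatives run. Sizes moved, and the smallest were no larger than their SE. The alternatives draw on the same libraries, so a shared sign is not separate evidence. With all chr5 reads as the denominator the share stood at log2 0.87 for DKO against EV, 0.49 for S1KO against EV and 0.38 for DKO against S1KO. With reads on the centromeric side it stood at 0.12 (SE 0.14) for DKO against EV and -0.12 (SE 0.16) for DKO against S1KO. With the 10-kb zone included it stood at 0.36 for S1KO against EV. Numbers of fragments with a read gave 0.16 (SE 0.089) for DKO against EV and 0.027 (SE 0.089) for S1KO against EV. Capped reads gave 0.56 for DKO against EV and 0.32 for DKO against S1KO. The ratio to the telomeric side, by numbers of fragments, was 0.30 for DKO against EV, 0.047 for S1KO against EV and 0.25 for DKO against S1KO, and with capped reads 1.14 for DKO against EV. The 1 window called for DKO against EV became 0 with 25-kb windows and 3 with DESeq2. It became 2 with 100-kb windows, capped reads or chr5 totals as library size. Numbers of fragments also gave 0, but only 11 of the stretch's 29 windows passed the filter and were tested. The called window has only 12 fragments and most libraries read nearly all of them, so this count cannot decide whether the call holds. Leaving out 1 library gave 0 to 3 calls for DKO against EV and 0 to 1 for S1KO against EV. DESeq2 called 2 fragments for DKO against EV and 3 for S1KO against EV. For DKO against S1KO, window chr5:169652458-169702457 turned to log2 -0.056 by numbers of fragments, and chr5:169852458-169902457 to -0.050 without DKO replicate 2 (0.86 without DKO replicate 1). The cause was not tested. With the replicate block the calls in the stretch were 1 for DKO against EV and 0 for the other comparisons, as without it. A median listed member held 81.5 and 81 reads in DKO, 50.5 and 41 in S1KO, and 23 and 38.5 in EV. Reads are counted after amplification, so these numbers do not give the counting precision of contacts on single fragments.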
